A study of Mus musculus with 4 samples.

Results

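Immunoglobulin variable (V) segments are the gene pieces that give each B cell its own antibody. The members described here are all features whose symbols start with Ighv (heavy chain), Igkv (kappa light chain) or Iglv (lambda light chain). They number 348 of the 32285 features in the deposited matrices, with 185 Ighv, 160 Igkv and 3 Iglv features. They were followed in the spleens of 2 female mice with a GFP-marked B-cell lymphoma, 1 of the pBIC genotype and 1 of the pBIC10 genotype, each profiled with 1 gene expression library and 1 T-cell receptor library. The study's title concerns interleukin-10 from tumour B cells. The labels used here do not spell out the alleles or the age behind either genotype name, so nothing is assumed about them. Both suspensions were sorted as live cells and mixed to 20% GFP+ lymphoma cells and 80% GFP- cells of the microenvironment, so class sizes reflect the mixing as well as the spleen. With 1 library per genotype no test between genotypes was possible. All intervals below are exact 95% intervals, Clopper-Pearson for shares and Poisson for summed counts, and they cover counting error only.

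Each B cell joins 1 V segment to D and J pieces for its heavy chain and 1 V segment to a J piece for its light chain, and then usually keeps that pair. A clonal B-cell lymphoma therefore carries the V pair of the cell it arose from, while normal spleen B cells use many pairs. Plasma cells, which secrete antibody, hold far more V transcript than resting B cells. T cells and myeloid cells do not make immunoglobulin, so the V molecules counted in their barcodes give a background level for each library.

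The pBIC library held 18129 barcodes and the pBIC10 library 14991, against a stated target of about 10000 cells each. After filters and removal of doublet calls, 17483 and 14311 barcodes were used, with median totals of 6221 and 5556 unique molecular identifiers (UMIs, counted molecules). V segments took 269402 UMIs in pBIC and 756618 in pBIC10. Of the 348 V features, 141 had a UMI in the pBIC library, 176 had one in pBIC10 and 136 were at 0 in both. Only 29 features reached 100 UMIs in pBIC, and 40 did in pBIC10.

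Classes followed fixed counts of marker genes, and a barcode could meet several. B barcodes had at least 3 UMIs of Cd79a plus Cd79b, the signalling chains of the B-cell receptor (3967 in pBIC and 2749 in pBIC10). T barcodes had at least 1 UMI of Cd3e, a chain of the T-cell receptor complex (10877 and 4718). Myeloid barcodes had at least 5 UMIs of Lyz2, lysozyme (1246 and 4055). In pBIC10 a further class of 4001 barcodes had at least 1 UMI of Gstt1, a glutathione transferase that earlier results of these data gave as private to the pBIC10 lymphoma. No class was met by 2999 and 3097 barcodes.

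The markers that the rules did not use followed the class names for barcodes that met 1 rule alone, except that B barcodes of pBIC10 could also carry Gstt1. Levels are given as CPM, the summed UMIs of a gene scaled to the summed total of the barcodes. Ms4a1 (CD20) stood at 624 CPM in pBIC B barcodes and 20.6 in pBIC barcodes that were T only, and at 282 and 12.1 CPM in pBIC10. Trac, the T-cell receptor alpha constant gene, stood at 254 CPM in T-only pBIC barcodes and 4.85 in myeloid-only ones. A T-cell receptor beta contig was found in the matched receptor library for 72.1% of T barcodes in pBIC and 72.3% in pBIC10. The class overlap was large: 1127 barcodes met both the B and the T rule in pBIC (28.4% of B, 10.4% of T) and 378 in pBIC10 (13.8% of B, 8.01% of T).

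The Gstt1 class was proposed as an Ig-low lymphoma-like class, and the counts go against that name for the class as a whole. Of its 4001 barcodes, 2185 (54.6%) also met the B rule, and these made up 79.5% of all pBIC10 B barcodes. They are called Gstt1 barcodes below. The 824 that met no other rule were shallow (median 2357 UMIs), and they carried Cd79a, which the B rule uses, at 79.2 CPM, against 642 CPM in barcodes with both Gstt1 and the B rule and 16.1 CPM in T-only barcodes. Gstt1 was also read in pBIC, at 27.3 CPM in B barcodes led by that library's main light segment.

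The same barcode sequence occurred in both libraries 712 times, 3.93% of pBIC and 4.75% of pBIC10 barcodes. V segments made these visible, because each library had its own main light segment, Igkv8-30 in pBIC and Igkv3-1 in pBIC10. In pBIC, 88 barcodes were led by Igkv3-1 with at least 5 UMIs, and 87 of them were also barcodes of pBIC10, where all 87 were led by Igkv3-1 with more UMIs. Their Igkv3-1 counts in pBIC were a median of 5.41 per 100 of those in pBIC10 (quartiles 4.78 and 6.08), and their median totals were 683 UMIs in pBIC and 45290 in pBIC10. In the other direction, 58 pBIC10 barcodes were led by Igkv8-30, 56 of them were barcodes of pBIC with more Igkv8-30 there, and the median was 14.0 per 100 (quartiles 10.9 and 19.1). Igkv3-1 gave a UMI in 27.1% (23.9 to 30.5%) of the 712 shared barcodes in pBIC but in 3.57% (3.30 to 3.85%) of the other pBIC barcodes. For Igkv8-30 in pBIC10 the shares were 22.8% and 1.34%. For some results that rest on such barcodes, values without them are also given.

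**Figure D1:**
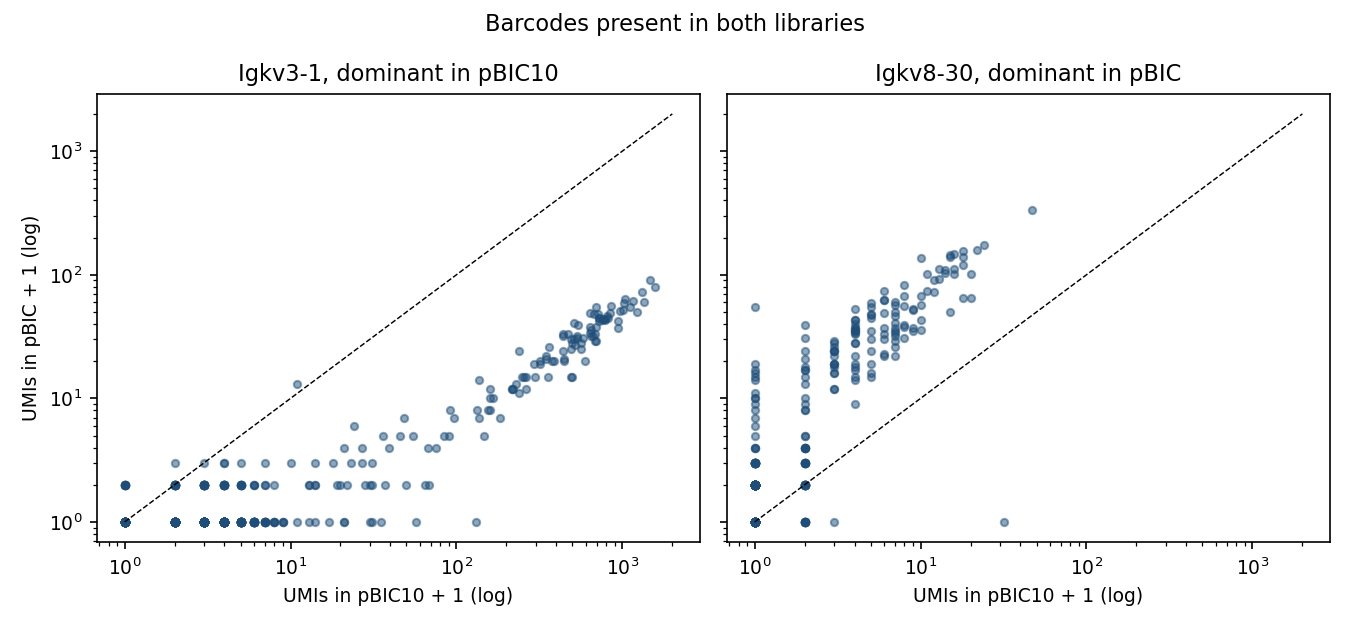
UMIs of Igkv3-1 (left) and Igkv8-30 (right) in the 712 barcodes present in both libraries; each point is 1 barcode, the x axis is its count in pBIC10 plus 1, the y axis its count in pBIC plus 1, both on log scales, and the dashed line marks equal counts. Most barcodes rich in Igkv3-1 lie in a narrow band below the line, near the median of 5.41 pBIC UMIs per 100 in pBIC10. Most barcodes rich in Igkv8-30 lie above the line. Exceptions include a barcode with 130 Igkv3-1 UMIs in pBIC10 and 0 in pBIC, and one with 31 Igkv8-30 UMIs in pBIC10 and 0 in pBIC.

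In pBIC B barcodes, Igkv8-30 led the light chain and Ighv2-9 the heavy chain almost throughout. The leading segment is the one with most UMIs in a barcode, and a tie has no leader. Igkv8-30 led 3463 of the 3680 B barcodes with a light V UMI (94.1%, 93.3 to 94.8%), with 81 tied. Ighv2-9 led 3526 of the 3563 B barcodes with a heavy V UMI (99.0%, 98.6 to 99.3%). With at least 5 UMIs of the leader, the Igkv8-30 share was 99.2%.

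In pBIC10 B barcodes, Igkv3-1 led 2501 of the 2724 with a light V UMI (91.8%, 90.7 to 92.8%). The heavy chain had no such single leader: Ighv9-1 led 1404 of 2650 barcodes (53.0%, 51.1 to 54.9%) and 297 (11.2%) were tied. Summing segments by family before taking the leader raised the share led by the Ighv9 family to 88.2%. Among barcodes with at least 10 UMIs of the chain, the leading segment held a median of 100% of the light UMIs but 40.6% of the heavy UMIs in pBIC10. In pBIC the order was the other way round, with medians of 86.4% for the light chain and 100% for the heavy chain.

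The light V counts of pBIC B barcodes held a steady set of companions beside Igkv8-30. Among 2652 B barcodes led by Igkv8-30 with at least 10 UMIs, Igkv8-30 took 85.9% of light V UMIs. Igkv6-29 was present in 82.1% of those barcodes (80.5 to 83.5%) and took 7.07% of the UMIs, and Igkv8-28 was present in 52.0% and took 2.57%. In the gene order of RefSeq, Igkv6-29 is the next V segment after Igkv8-30 and Igkv8-28 the one after that. The companions that followed lay far off in that order: Igkv2-109 was present in 29.6% of barcodes and took 0.910% of UMIs, Igkv12-89 in 29.03% with 0.8996%, and Igkv14-111 in 14.0% with 0.369%. The lambda segment Iglv3, from another locus, was present in 14.6%.

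The classes overlap, so the ratios of companions to Igkv8-30 were read in barcodes that met 1 rule alone; T-only barcodes held 3369 of the 28472 Igkv8-30 UMIs of the T class and myeloid-only barcodes 273 of 1850. Igkv6-29 stood at 8.48 UMIs per 100 of Igkv8-30 in B-only barcodes (8.28 to 8.69), 7.98 in T-only (7.03 to 9.04) and 10.3 in myeloid-only barcodes (6.69 to 15.2), and the 3 intervals overlapped. The ratio of Igkv8-28 was higher in T-only than in B-only barcodes, at 4.54 (3.84 to 5.34) against 3.09 per 100 (2.97 to 3.22), and that of Igkv2-109 more so, at 4.04 (3.38 to 4.79) against 1.13 (1.06 to 1.204). Myeloid-only barcodes had 8 UMIs of Igkv8-28 and 9 of Igkv2-109, too few to place them between the others.

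The heavy chain of the same 2652 pBIC barcodes was 99.3% Ighv2-9. Its main companion was Ighv2-6-8, with 0.462% of heavy V UMIs and a UMI in 15.5% of barcodes (14.2 to 17.0%).

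In pBIC10, the light chain was close to a single segment and the heavy chain was a mixture of 5. Among 2225 B barcodes led by Igkv3-1 with at least 10 UMIs, Igkv3-1 took 99.7% of light V UMIs. No other light segment passed 0.06% of UMIs or 5% of barcodes; Iglv1 had a UMI in 4.81%, Igkv1-110 in 4.04% and Igkv8-30 in 3.28%. The heavy V UMIs of these barcodes fell on Ighv9-1 (38.5%), Ighv9-3 (31.9%), Ighv9-4 (10.1%), Ighv1-11 (9.99%) and Ighv9-2 (9.19%). The Ighv9 segments are close relatives in sequence, and how reads that match several of them were assigned is not given in the sources used here, so counts of single Ighv9 members are uncertain. Ighv1-11 belongs to another family.

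The mixture was found within single barcodes. In 1317 pBIC10 B barcodes with an Igkv3-1 leader and at least 30 heavy V UMIs, all 5 segments were present in 1187 (90.1%, 88.4 to 91.7%), and together they took a median of 100% of the heavy V UMIs. The median share per barcode was 38.6% for Ighv9-1 (quartiles 34.3 and 42.3%), 32.1% for Ighv9-3, 9.82% for Ighv9-4 and 8.94% for Ighv9-2. Ighv1-11 had a median of 8.97% and the widest relative spread, with a 5th percentile of 0% and a 95th of 25.6%. Ighv9-1 led 1034 of these barcodes, Ighv9-3 led 249 and Ighv1-11 led 31.

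In pBIC10, B-only barcodes met neither the T nor the myeloid rule but could carry Gstt1, while T-only and myeloid-only barcodes met 1 rule alone. In these 3 sets the order of the segments within the 5 was the same at the top, but the share of Ighv1-11 differed. Ighv9-1 took 38.5% of the 5 in B-only barcodes (38.3 to 38.8%), 39.6% in T-only (37.3 to 41.95%) and 36.8% in myeloid-only barcodes (34.3 to 39.2%), and Ighv9-3 took 31.9%, 29.97% and 32.2%. Ighv1-11 took 10.2% in B-only (9.99 to 10.3%), 13.3% in T-only (11.7 to 14.9%) and 13.5% in myeloid-only barcodes (11.9 to 15.4%). The Gstt1 barcodes outside the B rule gave 35.3% for Ighv9-1, 28.4% for Ighv9-3 and 18.8% for Ighv1-11, of 4415 UMIs. In the whole myeloid class Ighv9-2 took 14.7%, or 8.97% without the barcodes shared by the libraries. A single barcode led by Igkv3-4 held 1190 of the 2199 myeloid Ighv9-2 UMIs.

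That barcode showed the Ighv9 mixture without Ighv1-11. Of its 3805 UMIs in the 5 segments, 40.5% were Ighv9-1, 31.3% Ighv9-2, 18.7% Ighv9-3 and 9.51% Ighv9-4, and Ighv1-11 had 0 UMIs. A pBIC barcode led by Igkv6-15 gave 46.6%, 27.2%, 13.2% and 13.0% in the same order, of 5799 UMIs, also with 0 of Ighv1-11. Ighv9 members thus appeared together in barcodes of both libraries, and both of these barcodes occurred in both libraries.

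Ighv1-11 took a larger share in Gstt1 barcodes outside the B rule. It held 18.5% of heavy V UMIs in the 824 Gstt1-only barcodes and 10.0% in barcodes with both Gstt1 and the B rule. The 606 Ighv1-11 UMIs of the Gstt1-only set came from 254 barcodes, with no more than 24 from any barcode. These sets differ in depth, with median totals of 2357 and 19953 UMIs, and the part of depth in this difference was not tested.

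The 3 lambda V segments were rare in both libraries. Iglv3 was the lambda segment of pBIC, with 548 UMIs in 465 barcodes and never more than 5 in a barcode; 502 of these UMIs were in B barcodes, where it took 0.365% of light V UMIs. Iglv1 was the lambda segment of pBIC10, with 229 UMIs in 139 barcodes, and it led 3 B barcodes with at least 5 UMIs. Iglv2 had 0 UMIs in pBIC, which at a limit of 3 counts allows a share of up to 0.0172% of barcodes with a UMI (the exact upper bound is 0.0211%). In pBIC10 it had 40 UMIs in 13 barcodes and led 2 B barcodes, with up to 17 UMIs.

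V levels separated B barcodes from the others in both libraries. Summed over the class, V segments took 43.2 UMIs per 10000 in pBIC B barcodes (43.0 to 43.4), 8.04 in T barcodes and 3.39 in myeloid barcodes. The median barcode stood lower, at 38.6, 0.922 and 0.695 per 10000. In T-only and myeloid-only barcodes the summed level was 1.16 and 1.11 per 10000, and T-only barcodes held 9010 of the 79348 V UMIs of the T class, so most lay in barcodes that also met another rule. A single pBIC barcode with 12628 V UMIs, which met the B and the T rule, held 15.9% of the V UMIs of the T class, and the T level without it was 6.77 per 10000.

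The pBIC10 library held more V RNA in every class with a counterpart in pBIC. B barcodes had 131 V UMIs per 10000 (median barcode 87.9), T barcodes 15.8 (3.36) and myeloid barcodes 14.1 (3.02). T-only and myeloid-only barcodes stood at 2.91 and 2.95 per 10000, above the 1.16 and 1.11 of pBIC. Without the barcode with most V UMIs the myeloid level was 10.8, and without barcodes shared with pBIC it was 8.87. The difference between genotypes cannot be told apart from a difference between the 2 animals or the 2 libraries.

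Gstt1 barcodes fell into a V-rich and a V-poor part. Those that also met the B rule had 129 V UMIs per 10000 (median barcode 98.1), or 125 without shared barcodes. The 564 B barcodes without Gstt1 had 152 (median barcode 55.4), or 79.8 without shared barcodes. The 1816 Gstt1 barcodes outside the B rule had 14.4, and a T-cell receptor beta contig was found for 22.2% of them. Barcodes of no class in pBIC10 had 15.3 (median barcode 17.9). The 824 that were Gstt1 only had 38.8 per 10000 (38.1 to 39.4, median barcode 30.4). They lay below B barcodes and above T-only, myeloid-only and no-class barcodes. Their neutrophil gene S100a8 stood at 2872 CPM, against 344 CPM in barcodes with both Gstt1 and the B rule and 361 CPM in T-only barcodes. Over the 6 neutrophil markers the summed level was 7198 CPM in Gstt1-only, 800 CPM in Gstt1 and B, and 24887 CPM in myeloid-only barcodes. The part of this other RNA in the V level was not tested.

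The share of barcodes with any V UMI depended on depth and background, so it was also read at 2000 UMIs per barcode. At this fixed depth a V UMI was found in 91.4% of pBIC B barcodes (95.4% before thinning), 22.2% of T-only barcodes (53.9%) and 22.6% of myeloid-only barcodes (53.1%). In pBIC10 it was found in 97.1% of B (99.5%), 47.6% of T-only (86.6%), 44.0% of myeloid-only (87.4%) and 87.2% of Gstt1-only barcodes (95.02%). The T-only and myeloid-only shares were taken as the background of each library, and the Gstt1-only share lay above it. The pBIC10 barcodes of no class, also shallow (median 1306 UMIs), lay between, at 70.3% (90.4% before thinning). The part of depth in the background was not tested. Barcodes under 2000 UMIs were left out. They were 221 B, 779 T-only and 197 myeloid-only in pBIC. In pBIC10 they were 84 B, 322 T-only, 514 myeloid-only, 347 Gstt1-only and 2019 of no class.

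**Figure D2:**
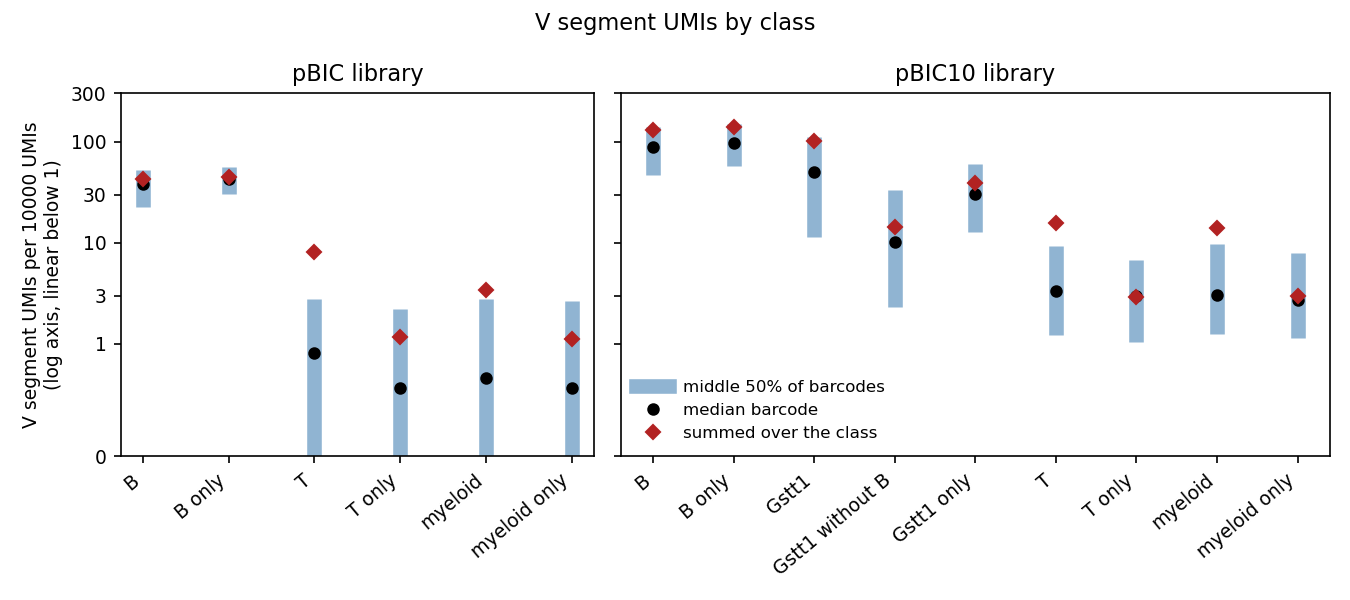
V segment UMIs per 10000 UMIs (log axis, linear below 1) by class in pBIC (left) and pBIC10 (right); bars span the middle 50% of barcodes, black points are the median barcode and red diamonds the level summed over the class. T and myeloid diamonds lie far above their medians, and the T-only and myeloid-only diamonds fall to 1.16 and 1.11 in pBIC and 2.91 and 2.95 in pBIC10.

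The light V UMIs of T and myeloid barcodes came largely from the library's own main segment. Igkv8-30 took 79.3% of light V UMIs in pBIC B barcodes, 64.2% in T and 80.4% in myeloid barcodes. Leaving out the barcode with most V UMIs in each class gave 83.5%, 75.8% and 79.3%. In T-only barcodes Igkv8-30 took 60.7% (66.9% without shared barcodes) and Igkv3-1, the segment of the other library, took 14.8%. In barcodes of no class Igkv3-1 took 42.3% and Igkv8-30 took 33.4%; without shared barcodes the Igkv8-30 share there was 56.7%.

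In pBIC10, Igkv3-1 took 92.1% of light V UMIs in B, 93.9% in T, 98.5% in Gstt1 and 73.8% in myeloid barcodes. The myeloid share was 95.8% without its top barcode, in which Igkv3-4 had 9736 UMIs, and 95.4% without shared barcodes. In T-only barcodes Igkv3-1 took 89.7% (92.1% without shared barcodes), Igkv8-30 3.04%, Igkv1-110 2.45% and Igkv4-74 1.88%. Igkv1-110 and Igkv4-74 were spread thinly, over 156 and 122 barcodes with at most 3 and 2 UMIs each. The heavy V UMIs of T-only barcodes were 31.8% Ighv9-1, 24.1% Ighv9-3, 8.03% Ighv2-9 and 2.95% Ighv1-63. Igkv4-74 and Ighv1-63 were also the pair of 1 barcode that met no class rule, with 465 and 2066 UMIs.

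**Figure D3:**
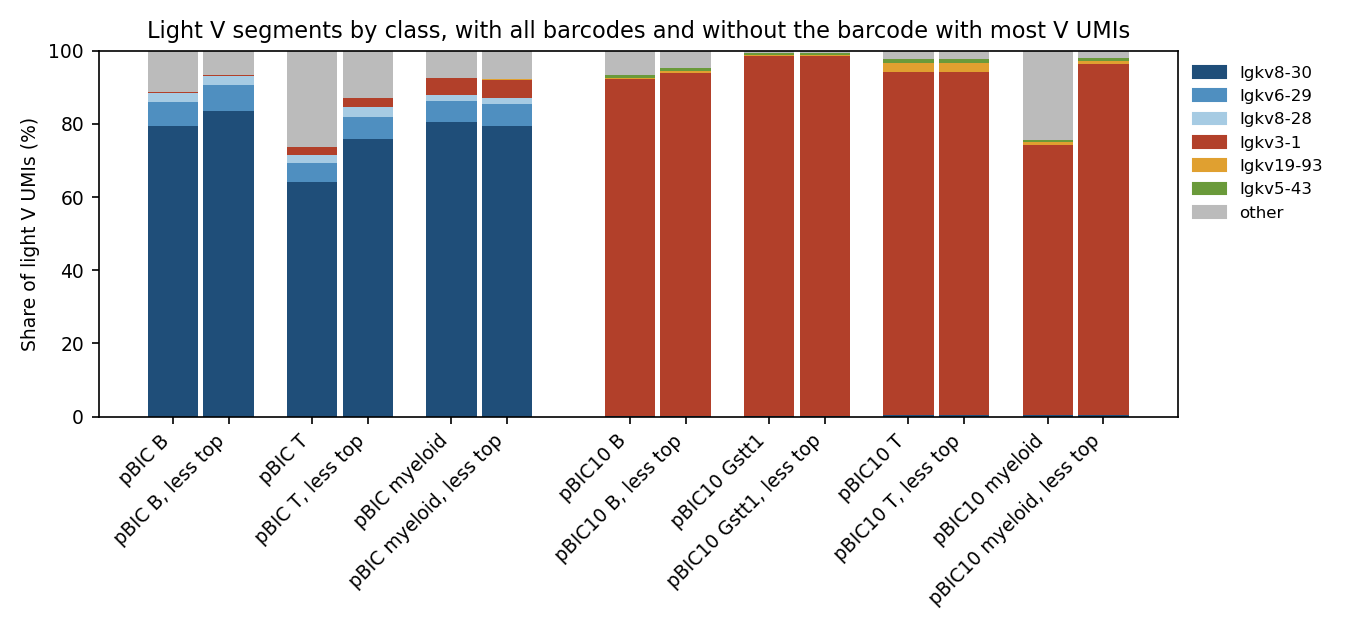
Shares of light V UMIs (%) by segment for each class of each library, with all barcodes and without the barcode with most V UMIs; colours mark Igkv8-30, its neighbours Igkv6-29 and Igkv8-28, Igkv3-1, Igkv19-93, Igkv5-43 and all other segments. The pBIC10 myeloid bar changes most when 1 barcode is left out, from 73.8% to 95.8% Igkv3-1.

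Candidate normal B barcodes were those led by another light segment than the library's main one, with at least 5 UMIs of the leader. The rule found 22 of 3967 B barcodes in pBIC (0.555%, 0.348 to 0.838%) and 185 of 2749 in pBIC10 (6.73%, 5.82 to 7.73%). The name is that of the rule, and the groups below go against it as a name for all of them. Of the 185, 54, 47 and 8 fell in groups that shared a light leader and, where counted, a heavy leader. Another 8 were led by Igkv8-30, the main light segment of the other library. They are called candidates below, and whether any is a normal B cell was not tested. The pBIC candidates were led by 14 segments and the pBIC10 candidates by 40. Of the 22, 5 were barcodes of both libraries, and of the 185, 17 were. The pBIC10 candidates also held 49 barcodes with Cd3e, 7 with a T-cell receptor beta contig and 58 with Gstt1. Requiring no Cd3e UMI, fewer than 5 Lyz2 UMIs and no beta contig left 16 and 124.

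The threshold of 5 UMIs cut the libraries differently. Among pBIC B barcodes with a leader other than Igkv8-30, 76 had 1 UMI of that leader, 30 had 2, 7 had 3, 1 had 4, 3 had 5, 1 had 6 and 15 had 10 or more. In pBIC10 the numbers were 5, 9, 4, 9, 7, 9 and 147. Counts of 1 to 3 UMIs were thus the usual case in pBIC, and counts of 10 or more the usual case in pBIC10. The candidates led by Igkv19-93 or Igkv5-43, the most common leaders in pBIC10, each had a median of 2 Igkv3-1 UMIs.

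**Figure D4:**
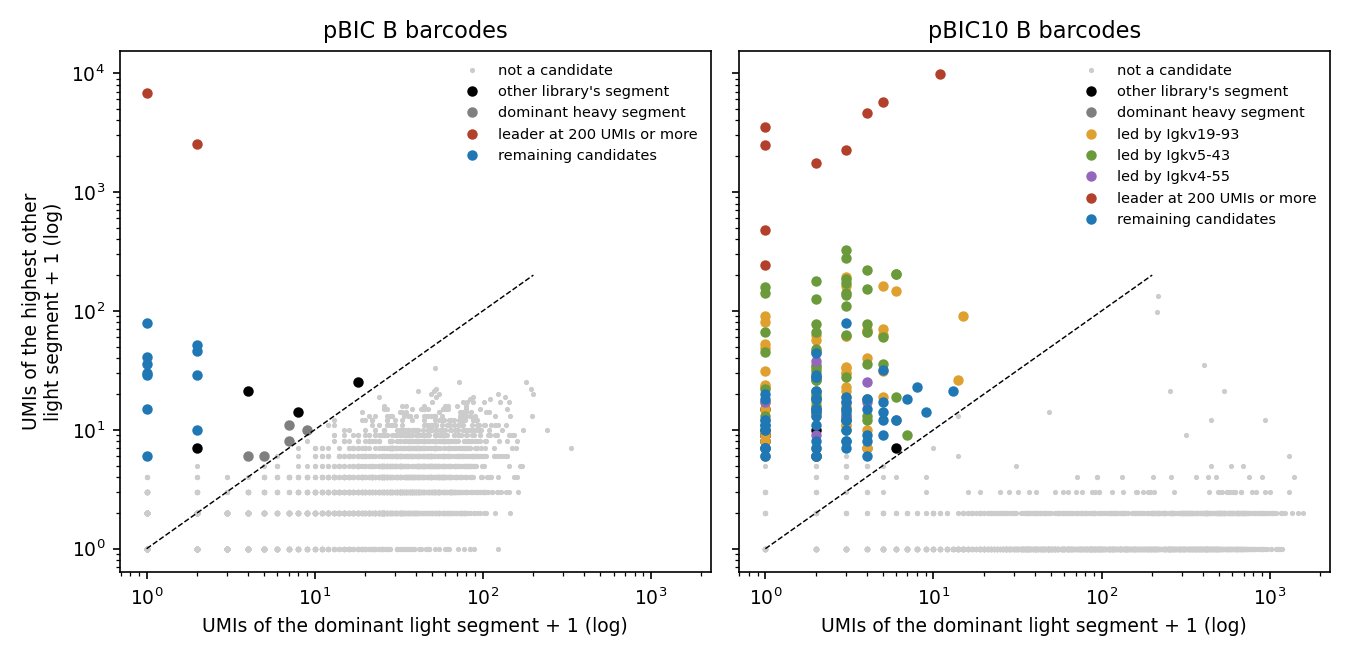
Each point is 1 B barcode of pBIC (left) or pBIC10 (right), with UMIs of the library's main light segment plus 1 on the x axis and UMIs of its highest other light segment plus 1 on the y axis, both on log scales; the dashed line marks equal counts and colours mark groups of candidates. The candidates form a column at low counts of the main segment, and the grey points, barcodes that are no candidates, mostly lie off the bottom of the y axis in pBIC and mostly at its bottom in pBIC10.

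The candidates held repeated and single light and heavy pairs. With at least 3 UMIs of a leading heavy segment, 132 of the 185 gave 49 pairs, and 43 of these were seen once. In pBIC, 17 of the 22 gave 13 pairs, 11 of them once. The groups below were set after these values were seen, so they are described and not tested.

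The largest group was led by Igkv19-93 with Ighv1-14. It held 54 B barcodes, all 54 with Ighv1-14 as the leading heavy segment. Their Igkv19-93 counts ran from 5 to 191 UMIs (median 24), their median total was 5379.5 UMIs, and Igkv19-93 took 93.8% of their light V UMIs against 4.90% for Igkv3-1. Over all classes Igkv19-93 led 58 barcodes, and all 58 had Ighv1-14. From the heavy side, Ighv1-14 led 68 barcodes with at least 5 UMIs and 62 of these were led by Igkv19-93. Of the 54, 3 were barcodes of both libraries.

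These 54 barcodes carried Ighm, the IgM constant gene, at 2410 CPM (2248 to 2581), with a UMI in every barcode. In the 2367 B barcodes led by Igkv3-1 with at least 5 UMIs, Ighm stood at 4.48 CPM and a UMI was found in 5.58%. Those main barcodes carried Igha, the IgA constant gene, at 807 CPM and Jchain, the joining chain of secreted IgA and IgM, at 1070 CPM, against 85.2 and 159 CPM in the Igkv19-93 group. Gstt1 stood at 58.8 CPM in the group (35.9 to 90.8) and 416 CPM in the main barcodes, with a UMI in 29.6% and 87.9%. Onecut2, a transcription factor gene, stood at 5.88 and 98.0 CPM, and Parm1 at 2.94 and 125 CPM.

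Fcmr, the Fc receptor for IgM, was at 688 CPM in the Igkv19-93 group and 33.8 CPM in the main barcodes, and Klf2, a factor of resting lymphocytes, at 579 and 111 CPM. Over the 10 resting mature B markers the summed level was 1610 CPM against 322 CPM. Cd3e was at 300 CPM, with a UMI in 53.7% of the 54, and Cd3g at 361 CPM, while T-only barcodes had 1171 and 894 CPM. The other T-cell genes were far lower in the group: Cd3d stood at 41.1 CPM and Trac at 11.8 CPM, against 1011 and 223 CPM in T-only barcodes, and 2 of the 54 had a beta contig. Over the 8 T-cell markers the summed level was 741 CPM in the group, 165 CPM in the main barcodes and 4081 CPM in T-only barcodes. Lyz2 stood at 1719 CPM in the group, 457 CPM in the main barcodes and 14570 CPM in myeloid-only barcodes, and its part in the other values was not tested.

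The next group was led by Igkv5-43 and held 47 B barcodes, with 6 to 325 UMIs of it (median 44) and a median total of 9636 UMIs. Its light counts always came with a partner: Igkv3-10 was present in all 47 and took 27.8% of the light V UMIs, 39.6 UMIs per 100 of Igkv5-43. The 2 segments lie 36 steps apart in RefSeq order. Heavy V counts were low, with a median of 2 UMIs. In the 19 barcodes with at least 3, the leader was Ighv1-4 each time.

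The Igkv5-43 group kept more of the Gstt1 signal than the others. Gstt1 stood at 188 CPM (160 to 221) against 416 CPM in the main barcodes, with a UMI in 66.0% of the 47. Onecut2 and Parm1 both stood at 3.67 CPM, against 98.0 and 125 CPM. Ighm was at 990 CPM with a UMI in 97.9%, and Ighe, the IgE constant gene, at 219 CPM with a UMI in 72.3%, against 0.359 CPM in the main barcodes. In the Igkv19-93 group Ighe stood at 162 CPM, with a UMI in 20.4%. Vpreb3 stood at 115 CPM in the Igkv5-43 group and 25.6 CPM in the main barcodes. Fcmr was at 66.1 CPM and the resting mature B markers summed to 478 CPM, both below the Igkv19-93 group.

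A small group of 8 barcodes was led by Igkv4-55, with 8 to 37 UMIs. All 7 with at least 3 heavy UMIs had Ighv1-80. Its constant gene was Ighg3 (IgG3), at 1655 CPM (1221 to 2195) with a UMI in all 8, against 0.0398 CPM in the main barcodes, and Ighm had a UMI in 3 of the 8 (37.5%). Gstt1 had 0 UMIs, which allows up to 103 CPM. Fcmr stood at 655 CPM and Klf2 at 621 CPM.

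Candidates with 200 or more UMIs of a leader other than Igkv5-43 numbered 2 in pBIC and 9 in pBIC10. In the pBIC barcode led by Igkv6-15 (6825 UMIs, with Ighv9-1) V segments were 47.9% of all UMIs, with 947 Igha and 741 Jchain UMIs. The pBIC barcode led by Igkv9-120 (2530 UMIs, with Ighv1-82) had 175 Ighm and 232 Jchain UMIs. In pBIC10 the highest was led by Igkv3-4 (9736 UMIs), with V segments at 56.9% of UMIs. Igkv6-32 with Ighv1-19 (5692 UMIs) and Igkv8-24 with Ighv1-14 (4584 UMIs) carried Igha, at 684 and 476 UMIs. Igkv9-120 with Ighv1-66 (3547 UMIs) carried Ighm at 493 UMIs.

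The pair Igkv6-23 and Ighv10-3 came up in 2 pBIC10 barcodes, with 2479 and 2242 light UMIs and V segments at 43.0% and 42.5% of UMIs. Igkv2-109 with Ighv4-2 had 1758 UMIs. These 7 pBIC10 barcodes held between 45 and 617 Jchain UMIs each. The other 2, led by Igkv6-17 (476 UMIs) and Igkv8-21 (241 UMIs), had 0 Jchain UMIs and V shares of 2.43% and 3.03%. As a group the 9 had Ighm at 16809 CPM, Jchain at 14546 CPM, Igha at 8992 CPM and Xbp1, a driver of the secretory programme, at 726 CPM, and 0 UMIs of Gstt1, which allows up to 23.2 CPM. Of these barcodes, 1 in pBIC and 4 in pBIC10 occurred in both libraries, with 200 to 1050 UMIs of the same leader in the other.

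The remaining 53 pBIC10 candidates were spread over 33 light segments. The 32 with at least 3 heavy UMIs gave 32 different pairs over 26 heavy segments. Their leaders had 5 to 78 UMIs (median 12) and their median total was 2823 UMIs. Ighm stood at 1589 CPM with a UMI in 96.2%, and Ighd, the IgD constant gene of resting B cells, at 109 CPM against 0.12 CPM in the main barcodes. Bank1, a B-cell scaffold gene, stood at 327 and 26.6 CPM. Over the resting mature B markers the summed level was 1873 CPM, the highest of the pBIC10 groups named here. Gstt1 stood at 34.9 CPM.

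The same 53 barcodes had the most neutrophil RNA of the candidates. S100a8 stood at 8676 CPM and S100a9 at 9152 CPM, against 429 and 480 CPM in the main barcodes, and the 6 neutrophil markers summed to 17942 CPM, against 24887 CPM in myeloid-only barcodes. Lyz2 had a UMI in 92.5% of them and 5 met the myeloid rule. The part of this RNA in the other values of the group was not tested.

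In pBIC, the 11 candidates left after the other groups used 10 light and 7 heavy segments, with leaders at 5 to 78 UMIs (median 29). Ighm stood at 1291 CPM in them and 961 CPM in the 2995 B barcodes led by Igkv8-30, Ighd at 161 and 18.0 CPM, and Bank1 at 888 and 111 CPM. The resting mature B markers summed to 3202 CPM against 857 CPM. The main pBIC barcodes thus carried Ighm, where those of pBIC10 carried Igha; Igha stood at 3.501 CPM and Jchain at 0.486 CPM in the main pBIC barcodes. Of the other 9 candidates, 5 had the main heavy segment Ighv2-9, 4 of them with its light neighbour Igkv6-29 as leader at 5 to 10 UMIs, and 4 were led by Igkv3-1, all 4 in both libraries.

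Over all features, candidates were set against B barcodes led by the main light segment by a fold of 2 or more in summed CPM, among features with at least 20 UMIs in both groups together. A group at 0 was given a floor of 3 UMIs, and a feature whose floor alone would put the empty group higher got no fold. The floor stands at a higher CPM in the smaller candidate group, so it limits calls of lower features more than calls of higher ones. In pBIC10, 1796 of 12599 features (14.3%) were higher in candidates and 1091 (8.66%) were lower. In simulated Poisson counts with the same group totals, 6.20% of unchanged features passed the fold in either direction. The simulation held no variation between barcodes, so its shares cover counting error only. With at least 20 UMIs expected in the candidates the simulated share was 0.114%. Of the 9 resting mature B markers with enough UMIs, 6 were higher and 1, Fcer2a, was lower, with a median log2 difference of 1.64. Of 12 immunoglobulin constant and joining chain genes, 7 were higher, among them Ighg2b (log2 10.53), Ighg3 (10.20), Ighg2c (9.56) and Ighm (9.22), while Igha differed by -0.05. Of the 1241 Igha UMIs of the candidates, 684 and 476 came from 1 barcode each. The B-cell markers gave 3 of 8 higher, Cd79a (1.07), Pax5 (1.16) and Ebf1 (1.27), with Ms4a1 at -0.19; Cd79a and Cd79b are the genes of the B rule, which chose both groups.

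All 7 genes listed as private to the pBIC10 lymphoma were lower in the candidates, with a median log2 difference of -3.97. That list was drawn from these libraries, so it is no independent evidence of direction. Gstt1 had the smallest difference (-1.83) and Sntg2 the largest fitted one (-4.73); Sprr1a had 0 UMIs in the candidates and was at least 19.4-fold lower. Among germinal centre markers, Mef2b (-3.55) was lower and Bcl6 (3.34) and S1pr2 (1.01) were higher.

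The plasma-cell markers gave 3 of 9 higher and 1 lower, with Jchain at 0.22. Of the 1994 Jchain UMIs of the candidates, 617, 475, 341 and 230 came from 1 barcode each, all with high V counts. The neutrophil markers gave 6 of 6 higher, the T-cell markers 3 of 8 higher and 1 lower, and the erythroid markers 3 of 5 higher. Il10 was higher in the candidates (log2 3.28), from 12 UMIs at 7.52 CPM against 0.777 CPM, and T-only barcodes had 29.97 CPM. The part of other cells' RNA in these differences was not tested.

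In pBIC the 22 candidates held 133221 UMIs in all, which is too few for most features. There, 1906 of 12540 features (15.2%) were higher and 1223 (9.75%) lower. In Poisson counts simulated the same way, without variation between barcodes, 14.1% of unchanged features passed the fold in either direction. Many of these calls may thus be counting error. With at least 20 UMIs expected in the candidates the simulated share was 0.678%. The plasma-cell markers gave 6 of 7 higher, and 973 of the 979 Jchain UMIs came from the 2 barcodes with the highest V counts. The resting mature B markers gave 4 of 10 higher and none lower, among them Ighd (2.06), Bank1 (1.43) and Cd55 (1.49). The T-cell markers gave 4 of 8 higher, Cd3d (1.14), Cd3e (1.21), Trbc1 (1.83) and Cd8a (1.76), and among erythroid markers Car2 was higher (1.31). Their part in the other differences was not tested. The pBIC lymphoma list, also drawn from these libraries, gave 1 of 6 lower.

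**Figure D5:**
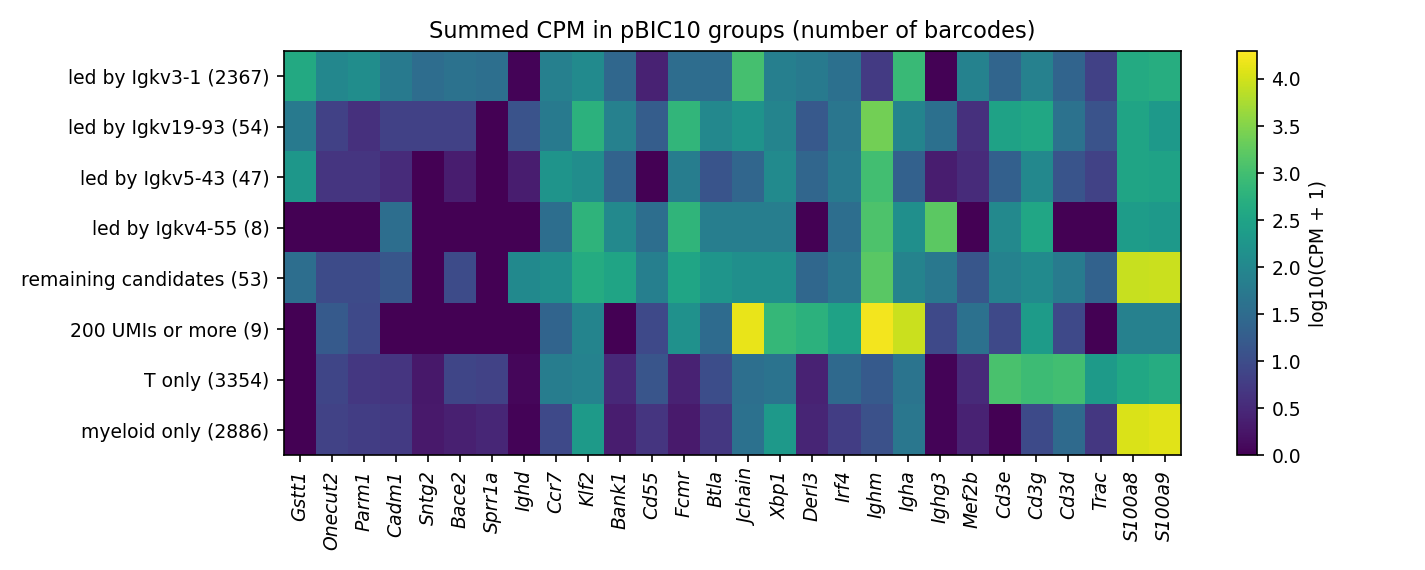
Levels of listed genes, as log10 of summed CPM plus 1, in the B barcodes led by Igkv3-1, the groups of candidates, and the T-only and myeloid-only barcodes of pBIC10; each row is a group with its number of barcodes and each column a gene. Gstt1 to Sprr1a are highest in the row led by Igkv3-1, Ighm stands at 990 CPM or more in each candidate row, which for the Igkv4-55 row rests on 3 of 8 barcodes, and S100a8 and S100a9 are high in the remaining candidates and the myeloid-only row.

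The same leader rule was also read in the other classes, which overlap with B, so some barcodes below are B candidates counted again. In pBIC, 30 T barcodes met the leader rule (0.276%, 0.186 to 0.394%), of which 5 were also B candidates. Of the 30, 24 were led by Igkv3-1 and occurred in both libraries. Of the 4 myeloid ones, all 4 were led by Igkv3-1 and 3 occurred in both. Of 60 without a class (2.001%, 1.53 to 2.57%), 57 were led by Igkv3-1 and all 57 occurred in both libraries.

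In pBIC10, 68 T barcodes met it (1.44%, 1.12 to 1.82%), 30 led by Igkv19-93, 14 by Igkv8-30 and 8 by Igkv5-43. Of the 68, 49 were also B candidates, among them 29 of the 30 led by Igkv19-93 and 6 of the 8 led by Igkv5-43. All 14 led by Igkv8-30 occurred in both libraries. Of the 67 Gstt1 barcodes, 34 were led by Igkv5-43 and 16 by Igkv19-93, and of the 25 myeloid ones, 7 by Igkv19-93 and 6 by Igkv8-30. Of these 67, 58 were also B candidates, and so were some of the 25. Of 35 without a class, 26 were led by Igkv8-30 and all 26 occurred in both libraries. Outside the B rule, 1 barcode in each library had a leader with 200 or more UMIs: Igkv1-117 with Ighv1-15 in pBIC (512 light and 291 heavy UMIs), and Igkv4-74 with Ighv1-63 in pBIC10, which carried 327 Igha and 102 Jchain UMIs but only 2 UMIs of Cd79a plus Cd79b.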

How the data were processed

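Droplet libraries were made with a 5' kit from sorted spleen cells, per the labels' protocols. The matrices hold UMI counts per feature and barcode as deposited, and the receptor tables give T-cell receptor contigs with their UMI counts per the file headers; they were used only to mark barcodes with a productive TRB contig. The submitters' processing notes name Cell Ranger 3.0.1 and GRCm39, while the matrix headers name software version 5.0.1, so no coordinates are given; gene order comes from RefSeq GRCm38.p6, where 346 of 346 V symbols matched. No V segment sequences were at hand. Barcodes had at least 200 genes and under 10% mitochondrial UMIs (17871 and 14667). Scrublet (scanpy 1.11.5, expected rate 0.08) marked 388 pBIC and 356 pBIC10 barcodes, which were removed. Its automatic threshold marked 0 pBIC barcodes with seed 0, so seed 1 was used for both libraries. Shares, summed CPM and exact intervals were computed with Python 3.11.15, numpy 2.4.6, scipy 1.17.1 and pandas 2.3.3, and the scripts were tested on simulated data. The median log2 difference over all features tested was 0 in both libraries, counting features without a fold as 0.

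The segments named are the main ones of each library, those with at least 1% of the V UMIs of a class (up to 10 per locus), the 10 that led most candidates and every Iglv segment; other segments and the 3 recurrent pairs were named after their values were seen. The members, lists and rules were chosen with earlier results of these data known. Classes overlap, barcodes are not replicates, and no test was made. Alternatives changed the barcode filters, the class thresholds, the rule for a leader, the summing of V levels and the fold; their effect is given in the closing section. Some marker genes are not reported here.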

Additional observations from a re-analysis of the deposited data

Results flagged for a closer look

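The main light segment of each library also led barcodes of the other, which lies outside the comparison of classes within a library. In pBIC, 87 barcodes led by Igkv3-1 with at least 5 UMIs were also barcodes of pBIC10. In pBIC10, 56 barcodes led by Igkv8-30 were also barcodes of pBIC. No control library was at hand to give a background, and all 87 and all 56 had more UMIs of that segment in the library where it is the main one.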

How the results depend on the processing

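Each genotype had 1 library, so these values show how the description moves with the choices and not how mice vary. No paired analysis was possible because each genotype had 1 library and no comparison was tested. Over the alternatives chosen at the start 79 values moved beyond their counting interval, or for counts by over 1.5 times, and 52 did not; over those added after seeing the data (leaving out barcodes found in both libraries, or the barcode with most V UMIs) 23 moved and 15 did not. Some orders between classes reversed. The main light segment's share of light V UMIs was 80.4% in pBIC myeloid and 79.3% in pBIC B barcodes. With only barcodes that meet 1 class rule it was 64.7% and 85.1%. In pBIC10 it was 73.8% in myeloid and 93.9% in T barcodes, and 95.4% and 94.1% without barcodes found in both libraries. The counts of candidates stayed within 1.5 times the reported 22 and 185 under every alternative run, from 15 to 30 in pBIC and from 124 to 198 in pBIC10. The cause of a shift was not tested, other than that each alternative changes the barcodes or UMIs counted.

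With only barcodes that meet 1 class rule, V UMIs per 10000 were 45.2 in pBIC B, 1.16 in pBIC T, 1.11 in pBIC myeloid, 139 in pBIC10 B, 2.91 in pBIC10 T, 2.95 in pBIC10 myeloid and 38.8 in pBIC10 Gstt1. That setting did not remove barcodes with Gstt1 from the B class of pBIC10. The main light segment's share of light V UMIs (%) was 85.1 in pBIC B, 60.7 in pBIC T, 64.7 in pBIC myeloid, 93.6 in pBIC10 B, 89.7 in pBIC10 T, 91.6 in pBIC10 myeloid and 98.2 in pBIC10 Gstt1. The share (%) led by the main light segment in B barcodes was 95.9 in pBIC. The share (%) led by the main heavy segment in B barcodes was 99.3 in pBIC. With a B threshold of 10 UMIs, V UMIs per 10000 were 47.7 in pBIC B and 140.41 in pBIC10 B. The main light segment's share of light V UMIs (%) was 93.3 in pBIC10 B. The share (%) led by the main light segment in B barcodes was 98.4 in pBIC. The share (%) led by the main heavy segment in B barcodes was 99.7 in pBIC and 62.3 in pBIC10. With at least 5 UMIs of the leading segment, the share (%) of B barcodes led by the main light segment was 99.2 in pBIC. The share (%) led by the main heavy segment in B barcodes was 99.8 in pBIC and 62.3 in pBIC10. With segments of a family summed, the share (%) of B barcodes led by the main light segment was 95.2 in pBIC. The share (%) led by the main heavy segment in B barcodes was 88.2 in pBIC10. With doublet calls kept, V UMIs per 10000 were 41.6 in pBIC B, 8.52 in pBIC T, 4.19 in pBIC myeloid, 127 in pBIC10 B, 16.9 in pBIC10 T, 16.3 in pBIC10 myeloid and 100.3 in pBIC10 Gstt1. The main light segment's share of light V UMIs (%) was 66.2 in pBIC T, 92.4 in pBIC10 B, 94.6 in pBIC10 T, 79.5 in pBIC10 myeloid and 98.5 in pBIC10 Gstt1. With all deposited barcodes, V UMIs per 10000 were 41.6 in pBIC B, 8.53 in pBIC T, 4.19 in pBIC myeloid, 127 in pBIC10 B, 17.3 in pBIC10 T, 16.3 in pBIC10 myeloid and 100.14 in pBIC10 Gstt1. For the main light segment, the share of light V UMIs (%) was 66.2 in pBIC T, 92.4 in pBIC10 B, 93.2 in pBIC10 T, 79.6 in pBIC10 myeloid and 98.5 in pBIC10 Gstt1. Without barcodes found in both libraries, V UMIs per 10000 were 41.4 in pBIC B, 6.75 in pBIC T, 2.9009 in pBIC myeloid, 121 in pBIC10 B, 15.3 in pBIC10 T, 8.87 in pBIC10 myeloid and 98.9 in pBIC10 Gstt1. In percent of light V UMIs, the main light segment was 83.4 in pBIC B, 76.7 in pBIC T, 96.3 in pBIC10 B, 94.1 in pBIC10 T and 95.4 in pBIC10 myeloid. With the mean over barcodes, V UMIs per 10000 were 40.8 in pBIC B, 6.01 in pBIC T, 3.94 in pBIC myeloid, 114 in pBIC10 B, 13.7 in pBIC10 T, 12.1 in pBIC10 myeloid and 73.2 in pBIC10 Gstt1. Without the barcode with most V UMIs, V UMIs per 10000 were 41.049 in pBIC B, 6.77 in pBIC T, 3.22 in pBIC myeloid, 128 in pBIC10 B, 15.5 in pBIC10 T, 10.8 in pBIC10 myeloid and 102 in pBIC10 Gstt1. The share (%) of the main light segment in light V UMIs was 83.5 in pBIC B, 75.8 in pBIC T, 93.9 in pBIC10 B and 95.8 in pBIC10 myeloid. With a T threshold of 3 Cd3e UMIs, V UMIs per 10000 were 4.84 in pBIC T and 7.44 in pBIC10 T. For the main light segment, the share of light V UMIs (%) was 55.6 in pBIC T and 91.7 in pBIC10 T. With T barcodes chosen by a productive TRB contig, V UMIs per 10000 were 5.32 in pBIC T and 7.87 in pBIC10 T. In percent of light V UMIs, the main light segment was 52.9 in pBIC T and 96.3 in pBIC10 T. With a myeloid threshold of 20 Lyz2 UMIs, V UMIs per 10000 were 1.98 in pBIC myeloid and 5.41 in pBIC10 myeloid. The share (%) of the main light segment in light V UMIs was 77.009 in pBIC myeloid and 94.1 in pBIC10 myeloid. With a Gstt1 threshold of 3 UMIs, V UMIs per 10000 were 130.09 in pBIC10 Gstt1. For the main light segment, the share of light V UMIs (%) was 98.9 in pBIC10 Gstt1. With only the Gstt1 barcodes under the B threshold, V UMIs per 10000 were 14.4 in pBIC10 Gstt1. In percent of light V UMIs, the main light segment was 97.3 in pBIC10 Gstt1. With a fold of 1.5 or more in place of 2, 2922 features were higher and 2255 lower in the pBIC candidates, and 2984 higher and 2443 lower in the pBIC10 candidates. With pBIC candidates that had no Cd3e UMI, under 5 Lyz2 UMIs and no TRB contig, 726 features were lower.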

Other observations

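The 2 recurrent groups of pBIC10 candidates differed from the B barcodes led by Igkv3-1 in genes outside the lists. Genes were ranked by fold among features other than immunoglobulins with at least 50 UMIs in the group, a rule set after the values were seen, with 738 features ranked for the Igkv19-93 group and 1908 for the Igkv5-43 group. In the Igkv19-93 group, Apoe, a lipid carrier protein, stood at 1963 CPM (1817 to 2118) against 45.4 CPM, with a UMI in 92.6% of the 54 barcodes. Tsc22d3, a glucocorticoid-induced gene, stood at 376 against 10.7 CPM with a UMI in 81.5%, and Ptpn22, a lymphocyte phosphatase gene, at 173 against 11.4 CPM with a UMI in 57.4%. Zcwpw1 had the largest fold (273 against 0.279 CPM) but a UMI in only 31.5%. The haemoglobin genes Hba-a1 and Hbb-bs also ranked high, but 92 of the 102 Hba-a1 UMIs and 174 of the 199 Hbb-bs UMIs came from a single barcode each.

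In the Igkv5-43 group, Lipc, hepatic lipase, had the largest fold, at 169 CPM (142 to 199) against 0.438 CPM, with a UMI in 80.9% of the 47 barcodes. Cd36, a fatty acid and scavenger receptor, stood at 111 against 6.49 CPM, Acaa2, an enzyme of mitochondrial fatty acid oxidation, at 63.6 against 3.69 CPM, and Ccnd2, cyclin D2, at 198 against 22.7 CPM. Cd2 was high in both groups, at 188 CPM in the Igkv19-93 group and 94.2 CPM in the Igkv5-43 group against 10.6 CPM. These values describe 1 library, and no independent sample was at hand to repeat them.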
